A study of Homo sapiens with 6 samples.

Results

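Endoglin (ENG) and 9 other genes of TGF-beta and BMP signalling were followed in T24 cells, a human bladder cancer (Bca) cell line, after siRNA against the circular RNA circ235. The 10 genes are the co-receptors ENG and TGFBR3, the receptors TGFBR1, TGFBR2 and BMPR2, the ligands TGFB1 and TGFB2, and the signal carriers SMAD2, SMAD3 and SMAD4. They were taken from 58288 gene identifiers in the count table, and all 10 were among the 14415 genes with enough counts to test. ENG was selected on its lower counts under both siRNAs, and the others were chosen with the results of these contrasts known. Their changes are therefore given as a description and without p-values. Calls at a threshold are counted below only to describe these genes, and are not a test of them. T24 cells were transfected with a control siRNA (NC), with si-circ235-1 or with si-circ235-2, and each condition gave 2 libraries. All 3 conditions were the same parental line and carried no other stated alteration, and both siRNAs were compared with the same 2 NC libraries. The sources used here give neither the siRNA dose nor the time after transfection of these libraries.

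TGF-beta ligands bring a type II receptor (TGFBR2) and a type I receptor (TGFBR1) together, and the type I receptor phosphorylates SMAD2 and SMAD3. These join SMAD4, enter the nucleus and regulate transcription. BMP ligands signal through other receptors, among them BMPR2, to SMAD1, SMAD5 and SMAD9. ENG is a membrane glycoprotein best known from endothelial cells, where it serves as a co-receptor for BMP9 (GDF2) and BMP10 with the type I receptor ACVRL1.

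The study connected circ235 with miR-330-5p, so the mature miRNA is shown with its seed matches in ENG, TGFB1 and SMAD3, the matched genes called in at least 1 comparison. In the miRNA the capitals mark the seed, bases 2 to 8, and in the genes they mark the letters CCCAGAG that pair with it. The miRNA sequence is from RefSeq (GRCh38.p14, chr19:45639049-45639070, minus strand), and the gene sequences are the matches with the 15 bases before them, from the longest 3' UTR of each gene in GENCODE 29 (GRCh38).
miR-330-5p: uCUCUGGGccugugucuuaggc
ENG, match 1 (chr9:127815713-127815734, minus strand): acagcatcgggagcaCCCAGAG
ENG, match 2 (chr9:127815265-127815286, minus strand): gagaagagggcccagCCCAGAG
ENG, match 3 (chr9:127815167-127815188, minus strand): agcccagcctgggagCCCAGAG
TGFB1 (chr19:41330616-41330637, minus strand): aggtgaggaaacaagCCCAGAG
SMAD3, match 1 (chr15:67190684-67190705, plus strand): aaacacacgagcaaaCCCAGAG
SMAD3, match 2 (chr15:67192361-67192382, plus strand): agggttgactcagaaCCCAGAG

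The 3' UTR of ENG, 900 bases long, held 3 matches. The first lay in the 3' UTR of 1 of the 3 coding ENG transcripts of the basic set, and the other two lay in that of all 3. TGFB1 held 1 match, SMAD3 held 2, and SMAD2 held 1 near the end of a 3' UTR of 32870 bases. In TGFBR1, TGFBR2, TGFBR3, BMPR2, TGFB2 and SMAD4 these letters were not in the window searched. Of the 12146 tested genes with a 3' UTR, 20.5% held at least 1 match and 1.51% held at least 3, on the strand of the gene. ENG had 3.33 matches per kilobase of 3' UTR, against 0.139 over all these genes, whose median 3' UTR was 1342 bases. This comparison was not matched for base composition. The letters CCCAGAG are mostly C and G, and the ENG transcript has 63.3% GC, where the median over genes was 48.4%. A match is a run of letters and does not show that the miRNA binds there.

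The libraries held 15373992 to 19912893 counts. Levels are given as TMM-normalized CPM (a count scaled to a common library size), and differences as log2 fold changes with their standard error from edgeR. The cells expressed the keratins KRT7, KRT8 and KRT18 and the mesenchymal gene VIM at 499 CPM or more in every library, while KRT19 and CDH1 stayed under 1 CPM. KRT7 fell under si-circ235-2 (log2 fold change -0.76, edgeR adjusted p = 0.0260), a value that was -0.03 with the trend removed, and VIM had 846 and 665 CPM in NC, 1173 and 1499 in si-circ235-1 and 655 and 499 in si-circ235-2. Of 9 urothelial markers 2 had enough counts to test, and UPK3A and KRT20 had none. PPARG, a urothelial transcription factor, rose from 23.2 and 22.6 CPM in NC to 39.5 and 45.9 in si-circ235-1 (0.90, edgeR adjusted p = 0.0264) and to 49.2 and 51.1 in si-circ235-2 (1.13, edgeR adjusted p = 0.00310). The si-circ235-1 call depended on each of the NC and si-circ235-1 libraries. It was lost without TMM factors (0.82, edgeR adjusted p = 0.0512). GATA3, the other urothelial marker tested, was called under neither siRNA. Of 10 endothelial markers, only ESAM and EGFL7 averaged at least 1 CPM, and TIE1 and ERG had no counts. Their summed level was 244 to 378 CPM in NC, 262 to 275 in si-circ235-1 and 163 to 184 in si-circ235-2. EGFL7 carried that drop, with 254 and 126 CPM in NC against 59.2 and 49.4 in si-circ235-2, and the part of these marker changes in the results below was not tested. In bulk RNA, fewer cells of a kind and less RNA per cell cannot be told apart. Fold changes also moved with base composition. Under si-circ235-2 genes in the top 25% by GC content had a median log2 fold change of -0.45, against 0.02 in the bottom 25%, and under si-circ235-1 the same medians were -0.26 and 0.13. ENG and TGFB1 have transcripts of 63.3% and 63.5% GC, inside that top group (over 56.5%), and most other genes of the group lie well below it. Fold changes are therefore also given with the part that followed the length and GC content of transcripts taken out of each library by a spline (trend removed).

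ENG (ENSG00000106991.13, chr9:127815012-127854756, minus strand) had 132 and 108 CPM in the NC libraries, 51.6 and 50.7 in si-circ235-1 and 86.0 and 79.4 in si-circ235-2. All 4 knockdown libraries lay below both NC libraries, and the si-circ235-1 libraries were the lowest. The mean was 120.0 ± 17.5 CPM for NC (SD, n = 2), 51.1 ± 0.613 for si-circ235-1 and 82.7 ± 4.65 for si-circ235-2. This gave a log2 fold change of -1.23 ± 0.18 (SE) under si-circ235-1, 42.6% of NC, and -0.54 ± 0.18 under si-circ235-2, 68.9% of NC. With the trend removed these values were -0.87 and -0.09. Without TMM factors they were -1.30 and -0.27. Between the siRNAs ENG was 0.69 ± 0.18 higher under si-circ235-2 on the log2 scale, and 0.78 with the trend removed. An antisense gene, AL162586.1, shares 7.95% of the exon bases of ENG, and these unstranded libraries cannot separate reads there. It had 11 to 26 counts per library, against 737 to 2018 for ENG.

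**Figure D1:**
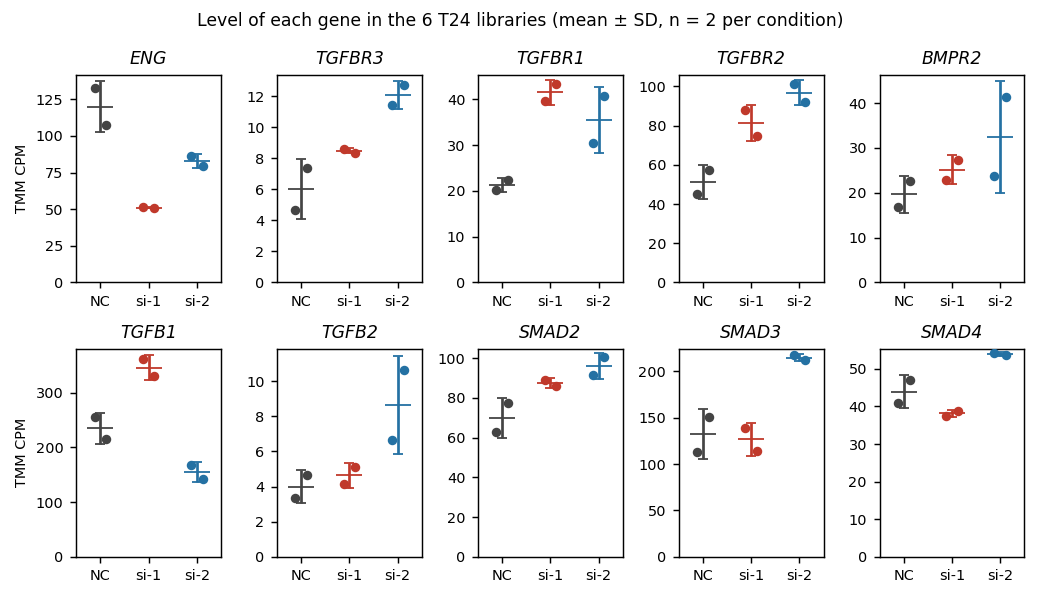
Level of each of the 10 genes in CPM (y axis, from 0) in the NC (grey), si-circ235-1 (si-1, red) and si-circ235-2 (si-2, blue) libraries. Points are single libraries, and bars are the mean ± SD of 2 libraries. At TMM-normalized levels, all 4 knockdown libraries lie below NC for ENG and above NC for TGFBR1, TGFBR2, TGFBR3, BMPR2 and SMAD2. TGFB1 is above NC under si-circ235-1 and below it under si-circ235-2. By library totals alone, TGFBR3, BMPR2 and SMAD2 each have a si-circ235-1 library below the higher NC library. How many of all tested genes separate in this way was not counted.

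TGFBR3 (betaglycan; ENSG00000069702.10, chr1:91680343-91906335, minus strand), the co-receptor that presents TGF-beta ligands to TGFBR2, is structurally related to ENG. It had 4.66 and 7.40 CPM in NC, 8.60 and 8.37 in si-circ235-1 and 11.5 and 12.7 in si-circ235-2. At TMM-normalized levels, though not by library totals alone, every knockdown library was above NC, opposite to ENG. This amounted to 0.49 ± 0.28 under si-circ235-1 and 1.00 ± 0.28 under si-circ235-2 on the log2 scale, or 0.44 and 0.38 with the trend removed. The first value was 0.20 without NC replicate 1 and 0.90 without NC replicate 2.

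The receptors were also higher than NC in every knockdown library at TMM-normalized levels. TGFBR1 (ENSG00000106799.12, chr9:99104038-99154192, plus strand), the type I kinase, had 20.1 and 22.4 CPM in NC, 39.7 and 43.4 in si-circ235-1 and 30.5 and 40.7 in si-circ235-2. The log2 difference from NC reached 0.97 ± 0.22 with si-circ235-1 and 0.74 ± 0.21 with si-circ235-2, with overlapping levels between the siRNAs. After trend removal the values were 0.86 and 0.45. TGFBR2 (ENSG00000163513.17, chr3:30606502-30694142, plus strand), the ligand-binding type II kinase, had 45.2 and 57.6 CPM in NC, 87.8 and 74.7 in si-circ235-1 and 101 and 92.3 in si-circ235-2. The siRNA libraries did not overlap with NC, at log2 fold changes of 0.66 ± 0.19 and 0.91 ± 0.19. These were 0.69 and 0.35 with the trend removed. BMPR2 (ENSG00000204217.13, chr2:202376936-202567751, plus strand), the type II receptor for BMPs, had 16.7 and 22.6 CPM in NC, 22.8 and 27.4 in si-circ235-1 and 23.7 and 41.3 in si-circ235-2. Its lowest knockdown library was just above the higher NC library, or below it by library totals alone. The si-circ235-2 libraries of BMPR2 were far apart. The log2 fold changes were 0.35 ± 0.29 and 0.72 ± 0.29, or 0.21 and 0.39 with the trend removed, and the second was 0.27 without si-circ235-2 replicate 2.

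The levels of the ligand TGFB1 lay on opposite sides of NC under the siRNAs. TGFB1 (ENSG00000105329.9, chr19:41301587-41353911, minus strand) had 255 and 215 CPM in NC, 362 and 330 in si-circ235-1 and 167 and 142 in si-circ235-2, with no overlap between any 2 conditions. On the log2 scale the difference from NC was 0.56 ± 0.19 under si-circ235-1 and -0.61 ± 0.19 under si-circ235-2, and the difference between the siRNAs was -1.16 ± 0.19. With the trend removed these were 0.90, -0.09 and -0.99, so the difference from NC was small under si-circ235-2 while most of the distance between the siRNAs was kept. HNRNPUL1 overlaps 6.64% of the exon bases of TGFB1 on the other strand. Its counts were 2144 and 2534 in NC, 1758 and 1523 in si-circ235-1 and 3458 and 3916 in si-circ235-2, the reverse order of TGFB1, and reads in the shared bases cannot be told apart.

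TGFB2 (ENSG00000092969.11, chr1:218346235-218444619, plus strand), the ligand that depends most on betaglycan, had 3.35 and 4.65 CPM in NC, 4.13 and 5.14 in si-circ235-1 and 6.67 and 10.6 in si-circ235-2. Its si-circ235-1 and NC libraries overlapped, and both si-circ235-2 libraries were above them. The log2 fold change was 0.21 ± 0.33 under si-circ235-1 and 1.11 ± 0.32 under si-circ235-2, or 0.13 and 0.91 with the trend removed. The second was 0.74 without si-circ235-2 replicate 2, and the first was close to 0 without NC replicate 1.

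The SMADs lay within 0.32 of NC on the log2 scale under si-circ235-1. SMAD2 (ENSG00000175387.15, chr18:47808957-47931146, minus strand), a receptor-activated SMAD, had 62.9 and 77.1 CPM in NC, 89.2 and 85.8 in si-circ235-1 and 91.4 and 101 in si-circ235-2. Its log2 fold changes were 0.32 ± 0.18 and 0.45 ± 0.18, and the second was -0.02 with the trend removed. Leaving out an NC library moved the first to 0.18 or 0.51. SMAD3 (ENSG00000166949.15, chr15:67063763-67195195, plus strand), the other receptor-activated SMAD of the TGF-beta branch, had 113 and 151 CPM in NC, 139 and 114 in si-circ235-1 and 217 and 212 in si-circ235-2. NC and si-circ235-1 overlapped (log2 fold change -0.06 ± 0.20, and 0.20 without NC replicate 2), and si-circ235-2 was above both at 0.70 ± 0.20, or 0.11 with the trend removed. SMAD4 (ENSG00000141646.13, chr18:51028394-51085045, plus strand), the partner shared by both branches, had 40.8 and 47.0 CPM in NC, 37.5 and 38.9 in si-circ235-1 and 54.3 and 53.7 in si-circ235-2. It was below NC under si-circ235-1 (-0.20 ± 0.18) and above NC under si-circ235-2 (0.30 ± 0.18). With the trend removed, the second value turned to -0.22, and the first was -0.06 without NC replicate 2.

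Under si-circ235-1, 1 of the 10 genes (TGFBR1) was called higher and 1 (ENG) lower at an edgeR adjusted p under 0.05, where 2.24% of all tested genes were called higher and 3.64% lower. Under si-circ235-2, 5 (TGFBR1, TGFBR2, TGFBR3, TGFB2 and SMAD3) were called higher and 2 (ENG and TGFB1) lower, where 15.7% of all tested genes were called higher and 15.7% lower. Between si-circ235-2 and si-circ235-1, 3 (ENG, TGFB2 and SMAD3) were higher and 1 (TGFB1) lower, beside 21.1% and 18.6% of all tested genes. Since the genes were chosen with these contrasts known, the counts describe them only. As a group the 10 had a median log2 fold change of 0.34 for si-circ235-1 and 0.71 for si-circ235-2, beside -0.03 and -0.00 over all tested genes. With the trend removed the group medians were 0.22 and 0.23. The counts became 3 higher and 1 lower under si-circ235-1 and 2 higher and 0 lower under si-circ235-2. Between the siRNAs the group median went from 0.44 to 0.025 with the trend removed, and the counts became 2 higher and 2 lower. There SMAD3 (0.11) was no longer called and TGFBR1 (-0.40) was called lower. DESeq2 did not call TGFB2 between the siRNAs. The shares over all tested genes given above belong to the main fit only. Scaling by library totals alone (no TMM) put the median over all tested genes at 0.25 under si-circ235-2. It gave 0 higher and 1 lower of the 10 under si-circ235-1, and 7 higher and 0 lower under si-circ235-2. Neither ENG nor TGFB1 was then called under si-circ235-2. Both calls were also lost when any single library other than NC replicate 2 was left out. The counts depended on single libraries. Without NC replicate 1 edgeR called 0 of the 10 under si-circ235-1 (3 at an unadjusted p under 0.05) and 0 under si-circ235-2 (4 at an unadjusted p under 0.05). Without si-circ235-2 replicate 2 it called 1 under si-circ235-2, and without si-circ235-1 replicate 2 it called 0 under si-circ235-1 (4 at an unadjusted p under 0.05).

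**Figure D2:**
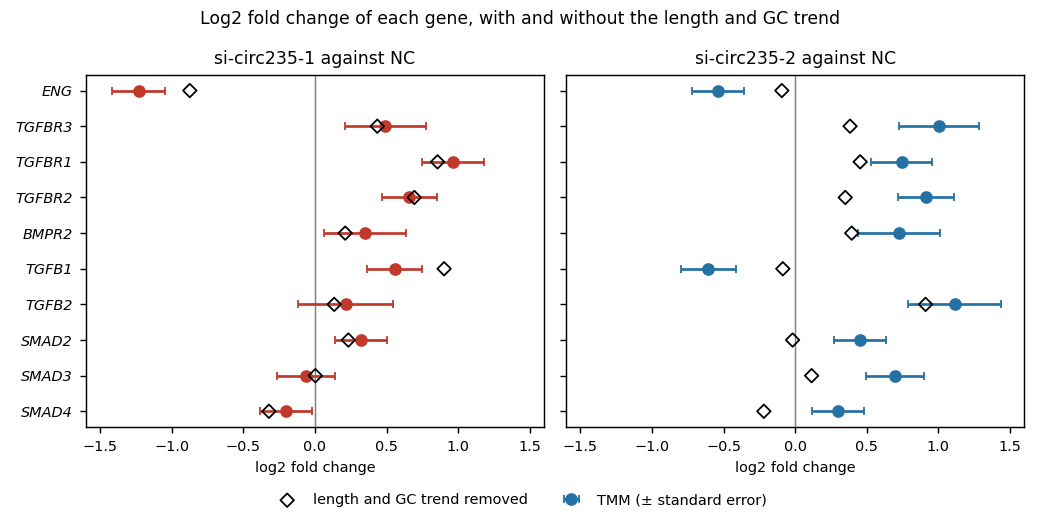
Log2 fold change against NC (x axis) of the 10 genes under si-circ235-1 (left) and si-circ235-2 (right). Filled points are the TMM-normalized values with bars of 1 standard error, and open diamonds the values after trend removal. For si-circ235-2, ENG and TGFB1 move from -0.54 and -0.61 to -0.09 when the trend is removed. Under si-circ235-1 ENG moves from -1.23 to -0.87.

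Levels of different genes were compared as CPM divided by the length of the longest transcript in kilobases. In NC, TGFB1 was highest at 84.9 ± 10.2 (SD, n = 2), followed by ENG at 39.2 ± 5.72, SMAD3 at 21.2 ± 4.28 and TGFBR2 at 11.1 ± 1.89. SMAD4 at 5.01 ± 0.500 and TGFBR1 at 3.26 ± 0.242 followed. SMAD2 (2.03 ± 0.291) and BMPR2 (1.72 ± 0.363) overlapped, as did TGFBR3 (0.932 ± 0.299) and TGFB2 (0.791 ± 0.182) at the bottom of the order. The value of SMAD2 was low because its longest annotated transcript has 34526 bases. ENG was thus second of 10 in NC, also when the length of all merged exons was used. In si-circ235-1 it stood at 16.7 ± 0.200, behind TGFB1 (125 ± 8.26), SMAD3 (20.3 ± 2.85) and TGFBR2 (17.6 ± 2.00), and its range fell inside that of TGFBR2. By merged exons it was instead below TGFBR2 (12.9 to 13.1 against 15.9 to 18.7) and inside the range of SMAD3 (12.5 to 15.3). In si-circ235-2 it was at 27.0 ± 1.52, below SMAD3 (34.4 ± 0.624) and above TGFBR2 (20.9 ± 1.38), with no overlap on either side, while by merged exons ENG (20.2 to 21.9) and TGFBR2 (19.6 to 21.5) overlapped. The order of these genes below TGFB1 in the knockdowns thus depended on the length chosen.

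**Figure D3:**
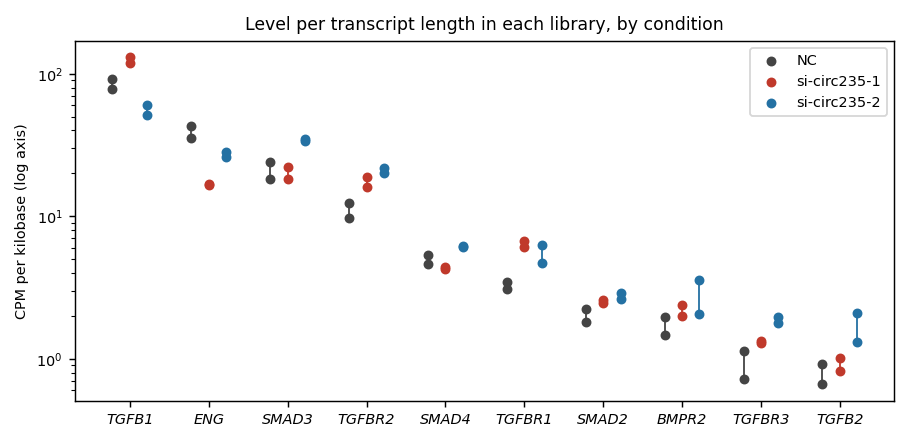
Level per transcript length (y axis, log scale, CPM per kilobase) of the 10 genes in order of their NC mean, with 1 point per library and a line joining the 2 libraries of a condition. ENG lies between TGFB1 and SMAD3 in NC and within the range of TGFBR2 in si-circ235-1 by this length, which is that of the longest transcript.

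Over the 6 libraries, the genes whose log2 CPM followed that of ENG most closely, among 10377 genes compared, were TMEM101 (Pearson r = 0.998), CTDSP1 (0.997), NAT9 (0.997), RTKN (0.995) and CCAR2 (0.994). CTDSP1, a small phosphatase of the RNA polymerase II tail, had 157 and 114 CPM in NC, 49.4 and 45.1 in si-circ235-1 and 86.4 and 83.0 in si-circ235-2. These points share their libraries and conditions, and transcripts of the 5 genes had a GC content of 56.5% to 61.7%. By rank correlation 141 genes reached the value of the fifth gene, and 6 libraries do not resolve the order near the top.

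A list of 8 genes held partners of ENG and the dynein light chain DYNLT1, whose binding to ENG was not checked here. The type I receptor of ENG, ACVRL1, had 0 to 3 counts per library. The ENG ligands GDF2 and BMP10 had at most 1 count, so these 3 genes could not be tested. GIPC1, an adaptor that binds the cytoplasmic tail of ENG, had 155 and 103 CPM in NC, 37.9 and 42.2 in si-circ235-1 and 74.2 and 65.8 in si-circ235-2. It fell under both siRNAs, by a log2 fold change of -1.69 ± 0.22 under si-circ235-1 (edgeR adjusted p = 0.00697) and -0.88 ± 0.22 under si-circ235-2 (edgeR adjusted p = 0.0120). The second was not called with the trend removed (-0.10, edgeR adjusted p = 0.625) or without NC replicate 1 (-0.57), and the first was not called without si-circ235-1 replicate 2 (-1.77). DYNLT1, a dynein light chain, and ARRB2, the beta-arrestin that takes part in ENG internalisation, fell under si-circ235-2, with log2 fold changes of -0.66 (edgeR adjusted p = 0.0343) and -0.65 (edgeR adjusted p = 0.0321). ARRB2 was not called with the trend removed (-0.15, edgeR adjusted p = 0.390), while DYNLT1 was (-0.74, edgeR adjusted p = 0.0224). Without TMM factors neither DYNLT1 (-0.41, edgeR adjusted p = 0.146) nor ARRB2 (-0.38, edgeR adjusted p = 0.149) was called. DYNLT1 was at -0.44 without si-circ235-2 replicate 2. Under si-circ235-1 DYNLT1 (0.53) and ARRB2 (-0.54) were not called. MMP14, the protease that sheds ENG from the membrane, and ZYX, a focal adhesion protein, passed the test under neither siRNA, with log2 fold changes of -0.39 and -0.62 under si-circ235-1 and 0.14 and -0.21 under si-circ235-2.

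The rest of the pathway was taken from lists of 133 further genes, of which 94 could be tested. Under si-circ235-1, 3 rose (3.19%) and 3 fell (3.19%), beside 2.24% and 3.64% of all tested genes. The split was 2 higher and 4 lower without TMM factors and 11 higher and 4 lower with the trend removed. The 6 called genes were ACVR2B, TGFBI and ID1, which rose, and FURIN, TAB1 and GIPC1, which fell. Under si-circ235-2, 25 rose (26.6%) and 13 fell (13.8%), beside 15.7% of all tested genes in each direction, which is also the background for the lists under this siRNA. They had a median log2 fold change of 0.19 against -0.00 over all tested genes. Without TMM factors the split under si-circ235-2 was 32 higher and 8 lower, and with the trend removed it was 18 and 11, which shared 21 of the 38 calls. The shares over all tested genes belong to the main fit only. Without TMM factors the median over all tested genes was itself 0.25 under si-circ235-2. Without NC replicate 1, 9 of the 38 calls remained, all of them higher, and the same 9 were kept without each of the other libraries and with the trend removed. They were BMP6, CD109, CREBBP, EP300, FN1, LTBP1, LTBP2, SKI and ZFYVE9, of which CREBBP, a co-activator related to EP300, was named after its values were seen. Of the 6 calls under si-circ235-1, 1 was kept when either NC library or si-circ235-1 replicate 1 was left out, and 0 when si-circ235-1 replicate 2 was (9 of 94 at an unadjusted p under 0.05 in edgeR).

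**Figure D4:**
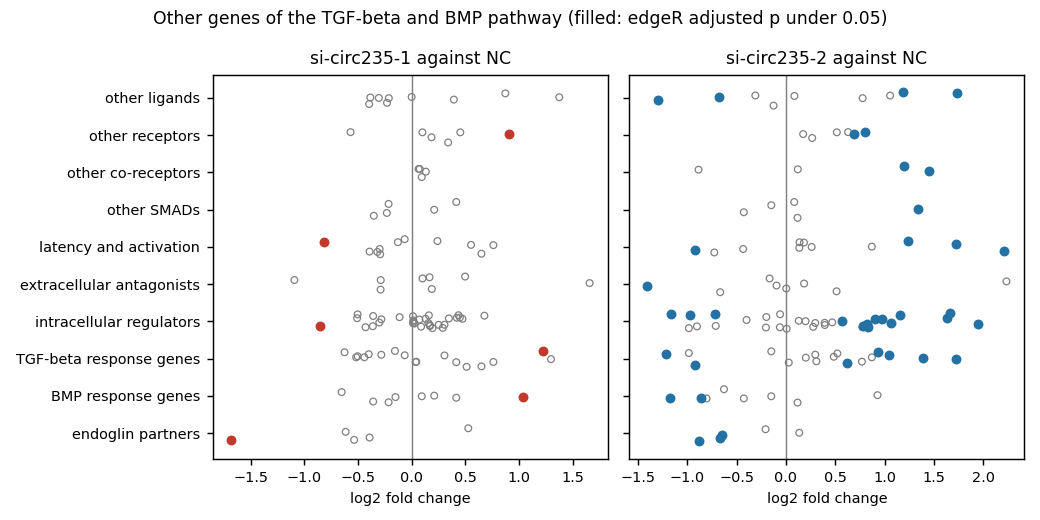
Log2 fold change against NC (x axis) of the other tested pathway genes under si-circ235-1 (left) and si-circ235-2 (right), by list (y axis). Each point is a gene, and a gene can stand in 2 lists. Filled points passed an edgeR adjusted p of 0.05, 6 genes under si-circ235-1 and 38 under si-circ235-2.

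Among 9 tested other ligands, edgeR called 0 under si-circ235-1 (DESeq2 0, with 1 at an unadjusted p under 0.05 in edgeR), while 2 rose and 2 fell under si-circ235-2. BMP6, a BMP ligand, rose from 2.69 and 3.36 CPM in NC to 9.85 and 10.3 (log2 fold change 1.73 ± 0.30, edgeR adjusted p = 0.00346). INHBA, the activin A subunit, rose by 1.19 (edgeR adjusted p = 0.0188), with 7.94 and 6.36 CPM in NC and 11.4 and 21.1 in si-circ235-2, and was 0.67 and not called without si-circ235-2 replicate 2. AMH, anti-Mullerian hormone, fell by 1.29 on the log2 scale (edgeR adjusted p = 0.00508), a value that was -0.09 with the trend removed.

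Of 6 tested other receptors, the activin type II receptor ACVR2B rose under both siRNAs, by 0.91 (edgeR adjusted p = 0.0465) and 0.80 (edgeR adjusted p = 0.0246), and the activin type I receptor ACVR1B rose under si-circ235-2 by 0.69 (edgeR adjusted p = 0.0271). With the trend removed neither was called under si-circ235-2, and ACVR2B stood at -0.03. Among 4 tested co-receptors, CD109, which binds TGF-beta and limits its signalling, rose under si-circ235-2 from 31.1 and 37.7 CPM to 69.5 and 88.7 (log2 fold change 1.20 ± 0.20, edgeR adjusted p = 0.00310), and NRP1 rose by 1.45 from 1.25 and 1.65 CPM (edgeR adjusted p = 0.0194). NRP1 was not called with the trend removed (0.82, edgeR adjusted p = 0.135). Of the 5 other SMADs, SMAD1, a carrier of the BMP branch, rose under si-circ235-2 by 1.33 ± 0.40 (edgeR adjusted p = 0.0273), from 2.89 and 7.88 CPM to 13.2 and 14.1, and was 0.78 and not called without NC replicate 1. Under si-circ235-1 edgeR called 0 of the co-receptors and 0 of the SMADs, as did DESeq2, with 0 at an unadjusted p under 0.05 in each list.

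Genes that store and activate latent TGF-beta gave 3 rises and 1 fall among 11 tested under si-circ235-2. LTBP1, a latent TGF-beta binding protein, rose from 1.05 and 1.35 CPM in NC to 5.49 and 5.64 (log2 fold change 2.21 ± 0.35, edgeR adjusted p = 0.00264). LTBP2, of the same family, had 16.2 and 22.5 CPM in NC and 65.1 and 62.8 in si-circ235-2 (1.72 ± 0.22, edgeR adjusted p = 0.00179). The fall was LTBP3, also of this family, from 159 and 122 CPM in NC to 83.5 and 64.0 (-0.93 ± 0.21, edgeR adjusted p = 0.00843). With the trend removed LTBP3 was at -0.53 (edgeR adjusted p = 0.0335), and without NC replicate 1 at -0.73. LTBP4, with 304 and 266 CPM in NC, was not called (-0.43). FBN1, the microfibril protein fibrillin-1, rose by 1.23 (edgeR adjusted p = 0.0119) and was not called with the trend removed (0.39, edgeR adjusted p = 0.297). Under si-circ235-1 the only call was FURIN, the protease that cleaves the TGF-beta precursor, which fell by 0.82 on the log2 scale (edgeR adjusted p = 0.0358). Of 8 tested extracellular antagonists, NBL1, a BMP antagonist, fell under si-circ235-2 from 52.6 and 34.2 CPM to 20.1 and 12.8 (-1.40 ± 0.28, edgeR adjusted p = 0.00504), or -0.65 with the trend removed (edgeR adjusted p = 0.0401).

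Intracellular regulators formed the largest list, with 11 rises and 3 falls among 31 tested under si-circ235-2. ZFYVE9 (SARA), which anchors SMAD2 and SMAD3 at endosomes, rose from 7.15 and 10.8 CPM in NC to 32.0 and 37.1 (log2 fold change 1.95 ± 0.30, edgeR adjusted p = 0.00242). EP300, an acetyltransferase and SMAD co-activator, rose from 24.3 and 33.5 CPM to 87.1 and 95.7 (1.66 ± 0.21, edgeR adjusted p = 0.00179). SKI, a SMAD co-repressor, rose from 30.2 and 42.4 CPM to 111 and 114 (1.63 ± 0.22, edgeR adjusted p = 0.00182). A co-activator and a co-repressor thus rose by similar amounts. All 3 calls held without each library in turn and with the trend removed, at 1.35, 1.04 and 1.53. Under si-circ235-1, TAB1, a partner of the kinase TAK1, fell by 0.85 on the log2 scale (edgeR adjusted p = 0.0442), the only call of this list. ZFYVE9, EP300 and CREBBP had values below 0 under that siRNA (-0.30, -0.51 and -0.43), and SKI was at 0.13.

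Known TGF-beta response genes gave 5 rises and 2 falls among 17 tested under si-circ235-2. FN1, fibronectin, rose from 38.8 and 49.9 CPM to 118 and 115 (log2 fold change 1.39 ± 0.19, edgeR adjusted p = 0.00182). JUNB, a transcription factor of the AP-1 family, fell by 1.21 on the log2 scale (edgeR adjusted p = 0.00437), or -0.39 with the trend removed (edgeR adjusted p = 0.0805). TGFBI, a secreted matrix protein, rose under both siRNAs, from 4.53 and 5.62 CPM in NC to 12.2 and 11.5 in si-circ235-1 (1.22 ± 0.25, edgeR adjusted p = 0.0231) and 10.6 and 10.3 in si-circ235-2 (1.04 ± 0.25, edgeR adjusted p = 0.0113). The second was not called with the trend removed (0.58, edgeR adjusted p = 0.0647). TGFBI was the only call of the list under si-circ235-1. FN1 stood at -0.52 under that siRNA, or -0.62 with the trend removed (edgeR adjusted p = 0.0394).

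The BMP response gene ID1, an inhibitor of basic helix-loop-helix factors, moved in opposite directions. It had 335 and 235 CPM in NC, 526 and 640 in si-circ235-1 and 139 and 114 in si-circ235-2. ID1 rose by 1.03 ± 0.23 under si-circ235-1 (edgeR adjusted p = 0.0295) and fell under si-circ235-2 (log2 fold change -1.17 ± 0.23, edgeR adjusted p = 0.00490). The rise was not called once any one of the NC or si-circ235-1 libraries was left out (0.84 to 1.31), and the fall was not called without NC replicate 1 (-0.90). With the trend removed both were called, at 1.26 and -0.56. ID3, of the same family, fell under si-circ235-2 by 0.86 on the log2 scale (edgeR adjusted p = 0.0156) and was not called with the trend removed (-0.34, edgeR adjusted p = 0.196). The other 6 tested genes of this list passed the test under neither siRNA.

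**Figure D5:**
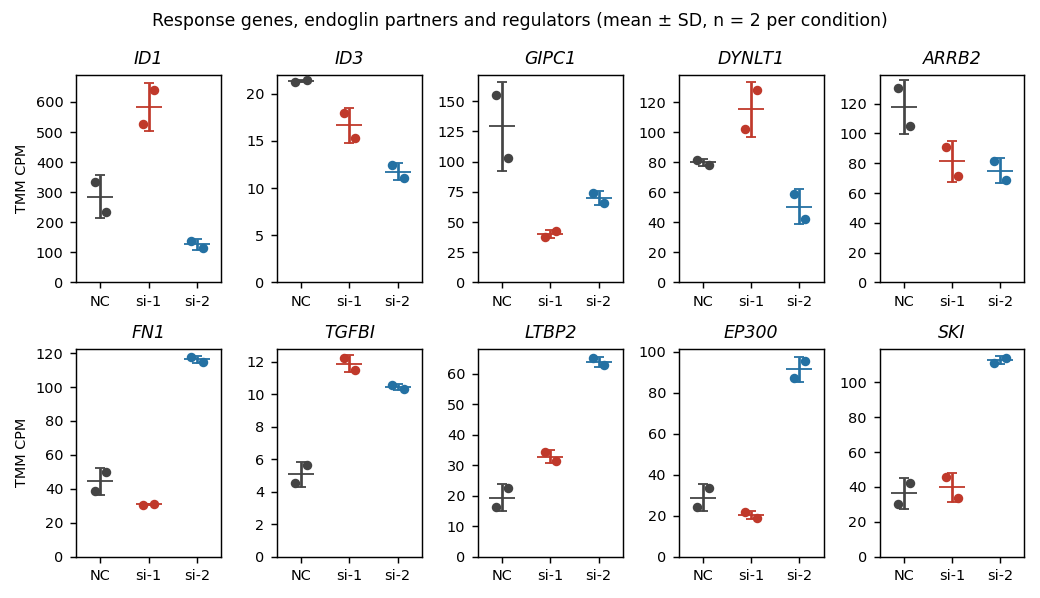
Level in CPM (y axis, from 0) of 10 named pathway genes in the NC (grey), si-circ235-1 (si-1, red) and si-circ235-2 (si-2, blue) libraries, with single libraries as points and the mean ± SD of 2 libraries as bars. ID1 lies above NC under si-circ235-1 and below NC under si-circ235-2, GIPC1 is lowest under si-circ235-1, and FN1, LTBP2, EP300 and SKI are highest under si-circ235-2.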

How the data were processed

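Polyadenylated RNA of 6 T24 libraries was sequenced without strand information. The deposited values are raw read counts per gene, as whole numbers. The submitters' processing notes name FastQC, cutadapt, STAR and hg38, while for the counting tool, the annotation and any filter nothing is stated in the sources used here. Poly(A) selection leaves out circular RNA, so circ235 itself was not measured and its knockdown could not be checked in these counts.

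Conditions came from the sample labels. The paper calls the 2 libraries of a condition biological replicates, and replicates differed by more than sampling noise (chi-square per degree of freedom 23.9 to 36.7). Of the identifiers, 99.5% matched GENCODE 29 (GRCh38), which supplied coordinates, lengths, GC content and 3' UTRs (longest transcript, longest 3' UTR of the basic coding set). The tests were run in edgeR 4.0.16 under R 4.3.3 (filterByExpr, TMM, quasi-likelihood test, 1 mean per condition, Benjamini-Hochberg adjustment over 14415 genes, threshold 0.05), and the test was checked on simulated data. Standard errors are the log2 fold change divided by the square root of the F statistic. The correlation with ENG used log2 CPM with a prior count of 2.

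Alternatives were DESeq2 1.42.0, its size factors in edgeR, no TMM factors, no filter, only the 2 conditions compared, a block for the replicate number, leaving out each library, and removal of a spline trend (5 degrees of freedom) over length and GC content. Genes, lists and alternatives were chosen with earlier results of these data known. The genes named were the 10 members, the genes of the ENG partner list and the 5 genes most like ENG. In each list, up to 3 called genes with the largest absolute log2 fold change per siRNA were also named. CREBBP, LTBP3 and LTBP4 were named outside this rule. With 2 libraries per condition, their number limits the precision more than counting does.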

Additional observations from a re-analysis of the deposited data

Results flagged for a closer look

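ID1 differed between the siRNAs, having risen under si-circ235-1 and fallen under si-circ235-2. The difference itself was tested, and si-circ235-2 was 2.21 log2 units below si-circ235-1 (log2 fold change -2.21, edgeR adjusted p = 0.000418), with both si-circ235-2 libraries under both si-circ235-1 libraries. Groups of 2 libraries are too small for a search for single libraries that stand apart.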

How the results depend on the processing

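Several of the 10 genes changed sign under an alternative, none of them in a comparison where the main fit called them. Against NC these were SMAD2 (-0.02) and SMAD4 (-0.22) under si-circ235-2 with the trend removed, SMAD3 under si-circ235-1 (0.0031 with the trend removed, 0.20 without NC replicate 2, and 0.08 when si-circ235-1 replicate 2 was absent) and TGFB2 under si-circ235-1 (-0.0031 without NC replicate 1). Between the siRNAs they were TGFBR2 (-0.34), TGFBR3 (-0.05) and SMAD2 (-0.25) with the trend removed, TGFBR1 (0.12) without TMM factors and BMPR2 (-0.08) without si-circ235-2 replicate 2. Other settings did call some of them. TGFBR1 between the siRNAs was called lower with the trend removed (-0.40), and SMAD2 under si-circ235-2 was called higher without TMM factors (0.70). The 10 genes gave 2, 7 and 4 calls for si-circ235-1, for si-circ235-2 and between the siRNAs. Under si-circ235-1 the count was 4 with DESeq2, 4 with the trend removed, 1 without TMM factors and 0 to 2 with 1 library left out. Under si-circ235-2 it was 2 with the trend removed and 0 to 6 with 1 library left out, and between the siRNAs 1 to 4, the lowest without si-circ235-1 replicate 2. The other pathway genes gave 6, 38 and 37 calls. Under si-circ235-1 the count was 10 with DESeq2, 15 with the trend removed (11 higher and 4 lower) and 0 to 7 with 1 library left out. Under si-circ235-2 it was 9 to 36 with 1 library left out, and between the siRNAs 17 to 37, the lowest without si-circ235-1 replicate 2. Counts of 0 are given with their unadjusted counts above. The cause of these shifts was not tested, apart from the smaller number of libraries when 1 is left out.

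Of named genes, ACVR2B under si-circ235-2 changed sign with the trend removed (-0.0297), MMP14 without si-circ235-2 replicate 1 (-0.0202 to 0.274 over the left-out libraries) and ZYX without TMM factors (0.053) and with the trend removed (0.45). ARRB2 between the siRNAs was 0.22 without TMM factors, 0.12 with the trend removed, and -0.281 to 0.0673 with 1 library left out, above 0 when either si-circ235-1 replicate 1 or replicate 2 of si-circ235-2 was absent. Of the other values of named genes, 431 kept direction and side of the threshold, 63 lost the call and 5 gained it. Without TMM factors 3 of the 5 genes most like ENG were shared. The same choice shifted the median over all genes by -0.11 (si-circ235-1) and 0.25 (si-circ235-2) on the log2 scale.

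The labels name no batch shared by libraries of the same replicate number, and correlations of deviations were -0.09 to 0.15. Neither can tell whether replicates were prepared in matched rounds, so pairing is not known. With the replicate block the 10 genes gave 2, 8 and 5 calls and the other pathway genes 6, 40 and 39.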

Other observations

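Single markers of other cell types also moved with the siRNAs. CD14, a monocyte marker, was the only one of 5 immune markers tested and rose under si-circ235-1 (log2 fold change 1.87, edgeR adjusted p = 0.0104). It had 2.82 and 2.87 CPM in NC, 11.0 and 9.94 in si-circ235-1 and 2.12 and 1.72 in si-circ235-2. The call depended on NC replicate 1 and si-circ235-1 replicate 2. PTPRC, CD3E and LYZ had no counts, and CD68 had 3 at most in a library. CDH2, a mesenchymal cadherin, rose under si-circ235-2 from 4.33 and 3.91 CPM in NC to 7.85 and 7.55 (0.90, edgeR adjusted p = 0.0275) and was not called with the trend removed (0.38, edgeR adjusted p = 0.275). Its call depended on each of the NC and si-circ235-2 libraries. The mesenchymal markers did not move together under this siRNA. FN1 rose (1.39), VIM (-0.39) and ZEB1 (-0.44) had negative values and were not called, and SPARC had 4 counts at most in a library.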
